A study of Danio rerio with 8 samples.

Results

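Ribosome biogenesis and nucleolar genes encode the proteins that transcribe, modify, fold and cut ribosomal RNA and assemble it with ribosomal proteins. A list of 57 such genes was followed in zebrafish liver. The RefSeq accessions of the deposited files were matched to gene symbols, and 49 of the 57 were found among 15600 transcript rows, each on 1 row. The other 8 (gar1, nop2, rrp1, gnl2, imp3, nle1, wdr36 and brix1) were not analysed here. Levels are CPM, a row's tags scaled to a library of 1000000 tags. A row was tested where 2 or more of the 8 libraries held 5 CPM of it, which left 38 of the 49 members with a test and 11 without. Among the 38, 8 (rrp9, utp15, utp3, tsr2, gnl3l, mrto4, mybbp1a and polr1d) reached that level only because of the wild-type libraries on doxycycline.

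The fish carried, or lacked, the transgene Tg(fabp10:TA; TRE:Myc; krt4:GFP). In it the liver promoter fabp10 drives a transactivator that switches on Myc in the presence of doxycycline, and krt4 drives a green fluorescent marker. The 4 groups were transgenic fish on doxycycline (M+D+, called tumour samples by the submitters), wild-type siblings on doxycycline (M-D+), transgenic fish that got none (M+D-) and wild-type siblings that got none (M-D-). Each group had 2 liver libraries. Doxycycline began at 21 days after fertilization, in 6-L tanks of about 25 fish. Total RNA was profiled by 3' RNA-SAGE on the SOLiD sequencer, which reads 1 short tag near the 3' end of a transcript, so a level does not grow with transcript length. Whether separate fish stand behind the 2 libraries of a group is not said in the labels, so p-values cover only how far these libraries differ from each other, and that spread can be technical. The Myc sequence of the transgene was not given in the sources used here, and its induction was not read.

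Ribosome assembly starts in the nucleolus, where RNA polymerase I copies the ribosomal DNA into a long precursor. Small nucleolar ribonucleoproteins (snoRNPs) modify that precursor, the small-subunit processome cuts out and folds the 40S part, and a separate set of factors builds the 60S part before both leave for the cytoplasm. The roles given below are those known from budding yeast and human cells. In mammalian cells MYC is known to bind and raise many genes of this pathway.

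Library totals ran from 1682372 tags (M-D+ library 1) to 6399932 tags (M+D+ library 1), so 1 tag was worth 0.156 to 0.594 CPM, and the limit that a count of 0 allows (3 tags) was 0.469 to 1.78 CPM, which covers counting error alone. CPM is a share of the library, and the 71 rows of ribosomal proteins took 45.5% and 46.5% of the tags of the M+D+ libraries, against 20.3% to 37.5% of those of the 6 control libraries. TMM scaling, which sets the bulk of rows equal between libraries, used factors of 0.701 and 0.857 for M+D+, 1.71 and 1.42 for M-D+, and 0.817 to 0.961 for the other 4 libraries. Results are therefore given on both scales. Liver identity was read from 5 of 9 hepatocyte markers, led by fabp10a, whose summed level was 136051 to 191800 CPM in M+D+ and 86291 to 224377 CPM in the controls. The other 4 (fga, hpxa, tfa and ttr) were not analysed here.

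Together the 49 members took 0.114% and 0.165% of tags in M+D+, 0.291% and 0.148% of tags in M-D+, 0.133% and 0.161% of tags in M+D-, and 0.161% and 0.192% of tags in M-D-. The summed level was 1394 ± 365 CPM in M+D+, 2198 ± 1009 CPM in M-D+, 1470 ± 197 CPM in M+D- and 1765 ± 217 CPM in M-D- (SD, with n = 2 libraries each). M-D+ library 1 stood highest, and the other 7 libraries overlapped across groups. After TMM scaling the sums were 1620 and 1929 for M+D+, 1700 and 1043 for M-D+, 1390 and 1770 for M+D-, and 1973 and 1997 for M-D- libraries, so the order of the groups depended on the scale. A few members carried most of these tags: nucleolin (ncl) averaged 408 CPM over the 8 libraries and the helicase gene ddx21 249.6 CPM, followed by bysl, nsa2 and wdr43. Of the 49, 5 averaged above 100 CPM, and the median member averaged 11.1 CPM.

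**Figure D1:**
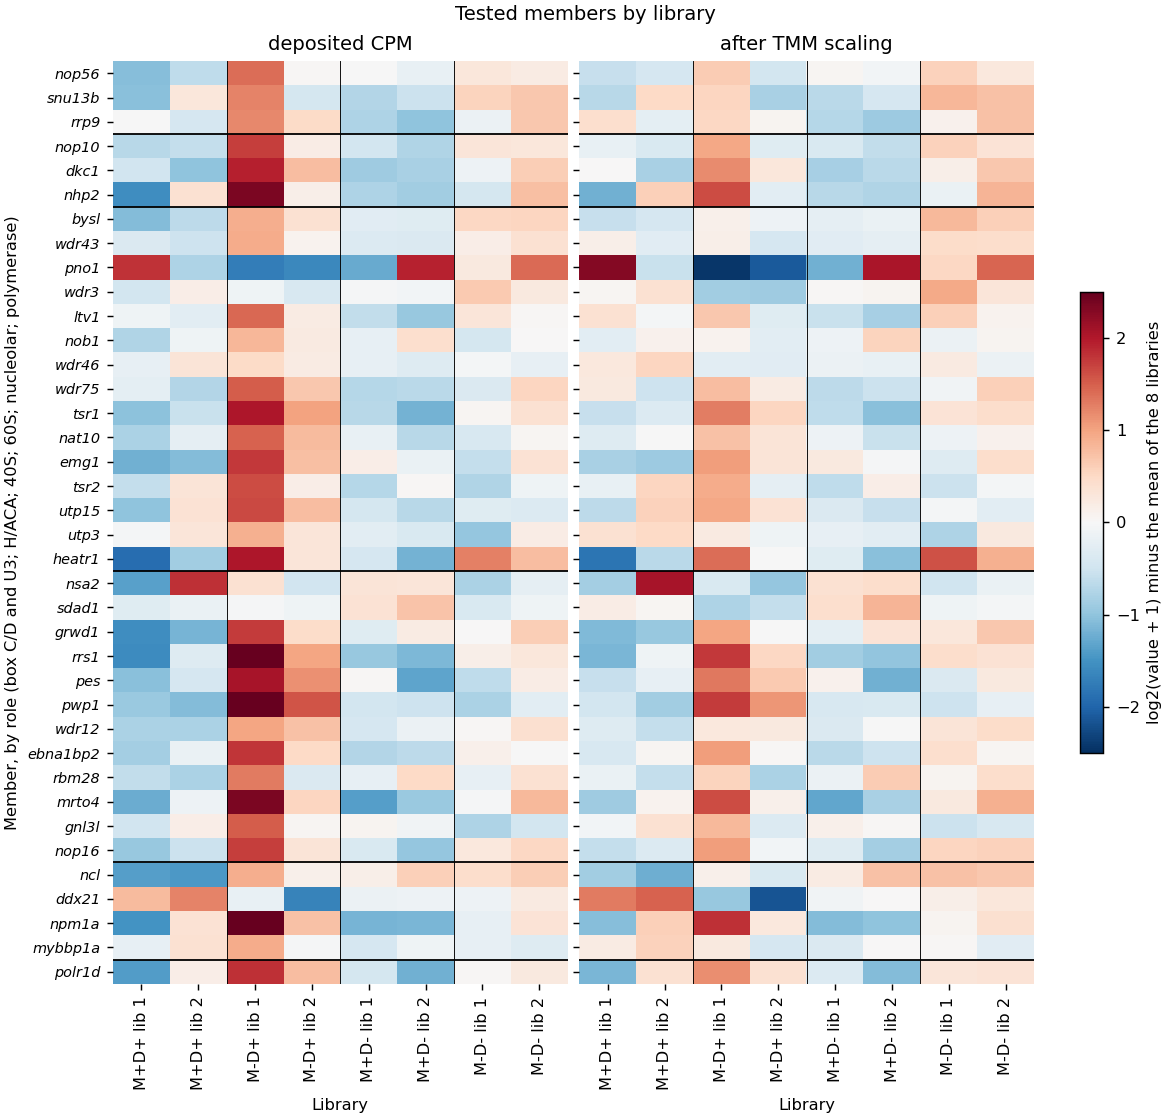
Levels of the 38 tested members (rows, grouped by role) in the 8 libraries (columns), as log2(value + 1) minus the member's mean over the libraries, from deposited CPM (left) and after TMM scaling (right). M-D+ library 1 is the warmest column for most members on the deposited scale and less so after TMM scaling, while ncl is coolest and ddx21 warmest in both M+D+ libraries on both scales.

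The first comparison set M+D+ livers beside the average of the 3 control groups. Of the 38 tested members 1 rose, ddx21, and 7 fell: ncl, bysl, grwd1, wdr12, pwp1, emg1 and heatr1 (limma adjusted p under a threshold of 0.05 over 4577 rows). These 8 are 21.1% of the members, beside 23% of all rows tested, so their share was near the background. In the 2 directions the shares were 2.63% of members and 2.32% of all rows for rises, and 18.4% and 20.7% for falls. The median log2 change was -0.72 over the members and -0.57 over all rows. After TMM scaling 3 members were called (ddx21 higher, ncl and grwd1 lower), 7.89% against 11.1% of all rows, with medians of -0.27 for the members and -0.13 for all rows. In bulk liver, fewer cells of a type and less RNA per cell cannot be told apart.

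Nucleolin (ncl, NM_001076652) is an abundant nucleolar RNA-binding protein that acts in polymerase I transcription and early processing. It stood at 135 and 130.2 CPM in M+D+, against 665 and 386 CPM in M-D+, 393 and 533 CPM in M+D-, and 482 and 543 CPM in M-D-. Both M+D+ libraries lay far below all 6 control libraries, and no group overlapped them. The fall was -1.88 ± 0.28 on the log2 scale (± SE, limma adjusted p = 0.00819), and -1.39 ± 0.27 after TMM scaling (limma adjusted p = 0.0224). It was the member past the threshold in most of the 19 other settings tried, 18 of them, and was lost only without M+D+ library 1 (limma adjusted p = 0.0557).

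The nucleolar RNA helicase gene ddx21 (NM_001127335), whose product acts in polymerase I transcription and rRNA processing, went the other way. It stood at 376 and 517 CPM in M+D+, against 191 and 68.0 CPM in M-D+, 195 and 199 CPM in M+D-, and 197 and 253 CPM in M-D-. Both M+D+ libraries were above every control library, and M-D+ library 2 was the lowest of all. The rise was 1.36 ± 0.38 on the log2 scale (limma adjusted p = 0.0381) and 1.85 ± 0.33 after TMM scaling (limma adjusted p = 0.0159). When the control average omitted M-D+ it was 1.07 ± 0.41 (limma adjusted p = 0.136), and of the 8 fits that each left out 1 library, 2 kept the call.

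The ratio of ddx21 to ncl tags within a library does not depend on any scaling. The ratio was 2.78 and 3.97 for M+D+, 0.288 and 0.176 for M-D+, 0.497 and 0.373 for M+D-, and 0.410 and 0.466 for M-D- libraries. In both M+D+ libraries ddx21 gave more tags than ncl, and in all 6 control libraries it gave fewer. The 2 genes together held 45.0% and 39.2% of the members' tags in M+D+ and 29.4% to 45.4% of them in the controls, so their sum overlapped between groups. The ratio was computed after both genes' values were seen and has no test.

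**Figure D2:**
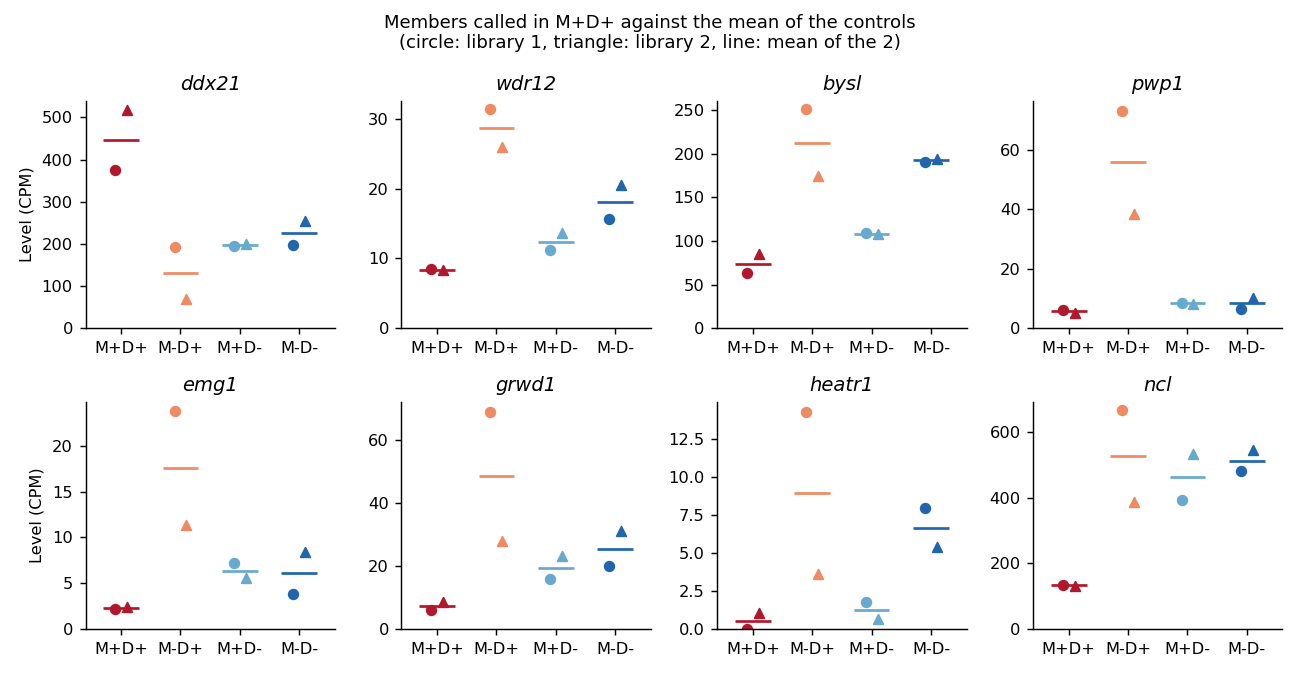
Level in CPM of the 8 members called in M+D+ beside the average of the controls, by group (linear axis from 0). Circles are library 1, triangles library 2 and lines the mean of the 2; ddx21 is above all control libraries in both M+D+ libraries, and ncl, bysl, grwd1, wdr12, pwp1 and emg1 are below all of them, while heatr1 overlaps M+D-.

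Nucleophosmin (npm1a), a nucleolar chaperone, stood at 3.44 and 15.01 CPM in M+D+, against 73.1 and 19.7 CPM in M-D+, 4.58 and 4.64 CPM in M+D-, and 9.77 and 14.7 CPM in M-D-. Its 2 M+D+ libraries lay on either side of both M+D- libraries, and the log2 change of -0.75 ± 0.59 did not pass the test (limma adjusted p = 0.360). The regulator gene mybbp1a gave 0.11 ± 0.36 and did not pass (limma adjusted p = 0.834). Nucleostemin (gnl3), a nucleolar GTPase, was too low to test, at 0.47 and 1.05 CPM in M+D+ and 0.44 to 7.73 CPM in the controls.

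Among 15 tested genes of the small-subunit processome and 40S assembly, 3 fell (bysl, emg1 and heatr1) and none rose, beside 20.7% of all rows called lower. After TMM scaling none of the 3 was called, beside 5.81% of all rows called lower. The gene bysl (NM_201106), for a late 40S assembly factor, stood at 62.7 and 84.8 CPM in M+D+, against 251 and 174 CPM in M-D+, 109 and 107.6 CPM in M+D-, and 191 and 194 CPM in M-D-. Both M+D+ libraries were lowest, M+D- was intermediate, and the groups did not overlap except for M-D+ and M-D-. The change was -1.15 ± 0.25 (limma adjusted p = 0.0176), and -0.67 ± 0.23 after TMM scaling (limma adjusted p = 0.0976), with both M+D+ libraries still below all 6 controls.

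The methyltransferase gene emg1 (NM_001040337), whose product modifies a pseudouridine of the small-subunit rRNA, stood at 2.19 and 2.44 CPM in M+D+, against 23.8 and 11.3 CPM in M-D+, 7.17 and 5.53 CPM in M+D-, and 3.86 and 8.46 CPM in M-D-. Both M+D+ libraries were again below all controls (log2 change -1.52 ± 0.38, limma adjusted p = 0.0273). After TMM scaling the change was -1.14 ± 0.33 and did not pass (limma adjusted p = 0.0624). The processome scaffold gene heatr1 (NM_199900) stood at 0 and 1.05 CPM in M+D+, against 14.3 and 3.62 CPM in M-D+, 1.79 and 0.66 CPM in M+D-, and 7.95 and 5.42 CPM in M-D-. M+D+ overlapped M+D- and lay below both wild-type groups, and the change of -1.85 ± 0.55 (limma adjusted p = 0.0461) passed in 3 of 18 other settings.

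Other processome genes were measured well without a call. For wdr43 the levels were 83.6 and 75.1 CPM in M+D+, against 205 and 114.6 CPM in M-D+, 84.8 and 83.8 CPM in M+D-, and 120.8 and 139.6 CPM in M-D-, with M+D+ lowest by a small margin over M+D- (log2 change -0.58 ± 0.27, limma adjusted p = 0.146). The scaffold gene wdr3 stood at 43.0 and 66.3 CPM in M+D+, against 55.3 and 44.9 CPM in M-D+, 58.0 and 56.4 CPM in M+D-, and 94.0 and 70.9 CPM in M-D-, with M-D- highest, M+D+ spanning the ranges of M-D+ and M+D-, and M-D+ below M+D-. Its log2 change of -0.20 ± 0.26 turned to 0.28 ± 0.26 after TMM scaling, with no call on either scale (limma adjusted p = 0.589 and 0.518). The 40S maturation gene ltv1, at 26.1 and 23.4 CPM in M+D+, against 78.5 and 32.6 CPM in M-D+, 18.1 and 14.2 CPM in M+D-, and 35.2 and 28.8 CPM in M-D-, likewise gave -0.26 ± 0.34 and 0.22 ± 0.32 after TMM scaling (limma adjusted p = 0.596 and 0.698).

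The 40S factor gene pno1 split within groups. It stood at 148 and 24.1 CPM in M+D+, against 11.9 and 12.9 CPM in M-D+, 16.9 and 160.9 CPM in M+D-, and 49.3 and 112.8 CPM in M-D-. The highest libraries belonged to 3 different groups, and its log2 change of 0.69 ± 0.89 did not pass (limma adjusted p = 0.582). The other 8 tested genes of this role (nob1, the endonuclease that ends 18S rRNA maturation, the acetyltransferase gene nat10, wdr46, wdr75, tsr1, tsr2, utp15 and utp3) had log2 changes between -1.06 (tsr1) and 0.17 (utp3), with no call on either scale.

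Of 12 tested genes of the PeBoW complex and 60S assembly, 3 fell (grwd1, wdr12 and pwp1) and none rose, beside 20.7% of all rows called lower. After TMM scaling grwd1 alone was called, beside 5.81% of all rows called lower. The gene grwd1 (NM_001003509), for a chaperone of a large-subunit ribosomal protein, stood at 6.09 and 8.38 CPM in M+D+, against 68.9 and 27.9 CPM in M-D+, 15.9 and 23.0 CPM in M+D-, and 19.99 and 31.0 CPM in M-D-. Both M+D+ libraries were the lowest of the 8. The log2 change was -1.81 ± 0.38 (limma adjusted p = 0.0170), and -1.37 ± 0.33 after TMM scaling (limma adjusted p = 0.0374).

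The PeBoW complex, needed for 60S rRNA processing, consists of the products of pes, bop1 and wdr12. Its member wdr12 (NM_199557) stood at 8.44 and 8.38 CPM in M+D+, against 31.5 and 26.1 CPM in M-D+, 11.2 and 13.7 CPM in M+D-, and 15.7 and 20.6 CPM in M-D-. The 4 groups did not overlap, in the order M+D+, M+D-, M-D-, M-D+ (log2 change -1.06 ± 0.24, limma adjusted p = 0.0211). After TMM scaling the change was -0.61 ± 0.24 and did not pass (limma adjusted p = 0.137).

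The scaffold gene pes stood at 6.88 and 11.2 CPM in M+D+, against 67.2 and 34.9 CPM in M-D+, 15.7 and 5.53 CPM in M+D-, and 9.54 and 17.6 CPM in M-D-. Its M+D+ libraries overlapped both groups without doxycycline, and the change of -0.98 ± 0.45 did not pass (limma adjusted p = 0.139). The third PeBoW gene, bop1, was too low to test in any group, at 1.09 and 0.70 CPM in M+D+, against 1.19 and 1.13 CPM in M-D+, 0.40 and 0.88 CPM in M+D-, and 1.14 and 1.95 CPM in M-D- (2 to 9 tags a library).

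For pwp1 (NM_200292), a WD-repeat nucleolar protein gene, the levels were 5.94 and 5.24 CPM in M+D+, against 73.1 and 38.5 CPM in M-D+, 8.56 and 8.18 CPM in M+D-, and 6.59 and 9.97 CPM in M-D-. M-D+ stood far above the 3 other groups, which lay close together with M+D+ lowest. The fall of -1.34 ± 0.31 (limma adjusted p = 0.0214) was -0.49 ± 0.33 when the control average omitted M-D+ (limma adjusted p = 0.371).

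The 60S factor gene nsa2 stood at 45.6 and 424 CPM in M+D+, against 155 and 85.0 CPM in M-D+, 147.8 and 147 CPM in M+D-, and 68.2 and 101.7 CPM in M-D-. Its 2 M+D+ libraries were the lowest and the highest of the 8, and the change of 0.32 ± 0.71 did not pass (limma adjusted p = 0.758). The other 8 tested 60S genes (rrs1, rbm28, ebna1bp2, nop16, mrto4, gnl3l, sdad1 and pes) had log2 changes from -1.27 (rrs1) to -0.21 (gnl3l), with no call on either scale.

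No core snoRNP gene was called against the control average. The box C/D scaffold gene nop56 came nearest, at 27.0 and 37.0 CPM in M+D+, against 154 and 59.12 CPM in M-D+, 57.2 and 50.4 CPM in M+D-, and 70.7 and 66.6 CPM in M-D-. Both M+D+ libraries were below all 6 controls (log2 change -1.13 ± 0.36, limma adjusted p = 0.0549), though not after TMM scaling (-0.65 ± 0.32, limma adjusted p = 0.212). Its partner snu13b, which binds the snoRNA fold, stood at 1.88 and 6.28 CPM in M+D+, against 13.1 and 3.40 CPM in M-D+, 2.59 and 3.09 CPM in M+D-, and 7.72 and 8.46 CPM in M-D-, with M+D+ overlapping M-D+ and M+D- (log2 change -0.50 ± 0.51, limma adjusted p = 0.480). The U3 snoRNP gene rrp9 gave -0.29 ± 0.37 and did not pass (limma adjusted p = 0.574).

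The methyltransferase gene fbl (fibrillarin), the catalytic subunit of box C/D particles, was too low to test, at 1.09 and 3.49 CPM in M+D+, against 7.73 and 2.49 CPM in M-D+, 0.80 and 0.66 CPM in M+D-, and 2.27 and 3.04 CPM in M-D-. Its M+D+ values lay within the range of the controls. The second scaffold gene, nop58, was at 0.47 and 1.05 CPM in M+D+ (3 tags each), 0.59 and 0 CPM in M-D+, 0 and 0 CPM in M+D-, and 0 and 0.87 CPM in M-D-. At 0 to 4 tags a library, no difference in nop58 was detectable at this depth.

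Among box H/ACA genes, whose particles convert uridine to pseudouridine, the synthase gene dkc1 stood at 14.7 and 9.78 CPM in M+D+, against 82.6 and 36.0 CPM in M-D+, 10.8 and 11.5 CPM in M+D-, and 18.9 and 32.3 CPM in M-D-. By mean of deposited CPM the structural genes also had M-D+ highest, but their M-D+ library 2 lay below at least 1 M-D- library. The gene nop10 was at 17.7 and 18.9 CPM in M+D+, against 98.1 and 33.1 CPM in M-D+, 20.9 and 16.8 CPM in M+D-, and 35.9 and 35.6 CPM in M-D-. For nhp2 the levels were 1.56 and 8.73 CPM in M+D+, against 37.5 and 7.25 CPM in M-D+, 3.39 and 3.09 CPM in M+D-, and 4.54 and 11.7 CPM in M-D-. In all 3 the highest library was M-D+ library 1, and M+D+ overlapped M+D-. Their log2 changes were -0.99 ± 0.37, -0.85 ± 0.38 and -0.78 ± 0.69 in the order dkc1, nop10 and nhp2, and none passed (limma adjusted p = 0.0847, 0.133 and 0.418).

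The shared subunits of RNA polymerases I and III were low. The gene polr1d stood at 0.63 and 3.84 CPM in M+D+, against 14.3 and 6.34 CPM in M-D+, 2.19 and 0.88 CPM in M+D-, and 3.41 and 4.12 CPM in M-D-. Its log2 change was -0.82 ± 0.52 (limma adjusted p = 0.259). Its partner polr1c, untested, was at 1.09 and 2.44 CPM in M+D+, against 2.38 and 0.91 CPM in M-D+, 0.60 and 0.22 CPM in M+D-, and 0.23 and 0.65 CPM in M-D-. M+D+ was above both groups without doxycycline for polr1c, from 1 to 7 tags a library in those 3 groups. All 11 untested members averaged 0.37 to 3.49 CPM over the 8 libraries. Beside fbl, nop58, gnl3, bop1 and polr1c they were the processome genes utp18, dcaf13, imp4 and nop14 and the 60S genes noc2l and nip7. Of these nop14 was below all 6 controls in both M+D+ libraries, at 0.47 and 0.70 CPM in M+D+ (3 and 2 tags). The controls ran from 0.87 CPM (M-D- library 2, 4 tags) to 3.57 CPM (M-D+ library 1, 6 tags). At so few tags this order of nop14 may be counting error, and it has no test.

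**Figure D3:**
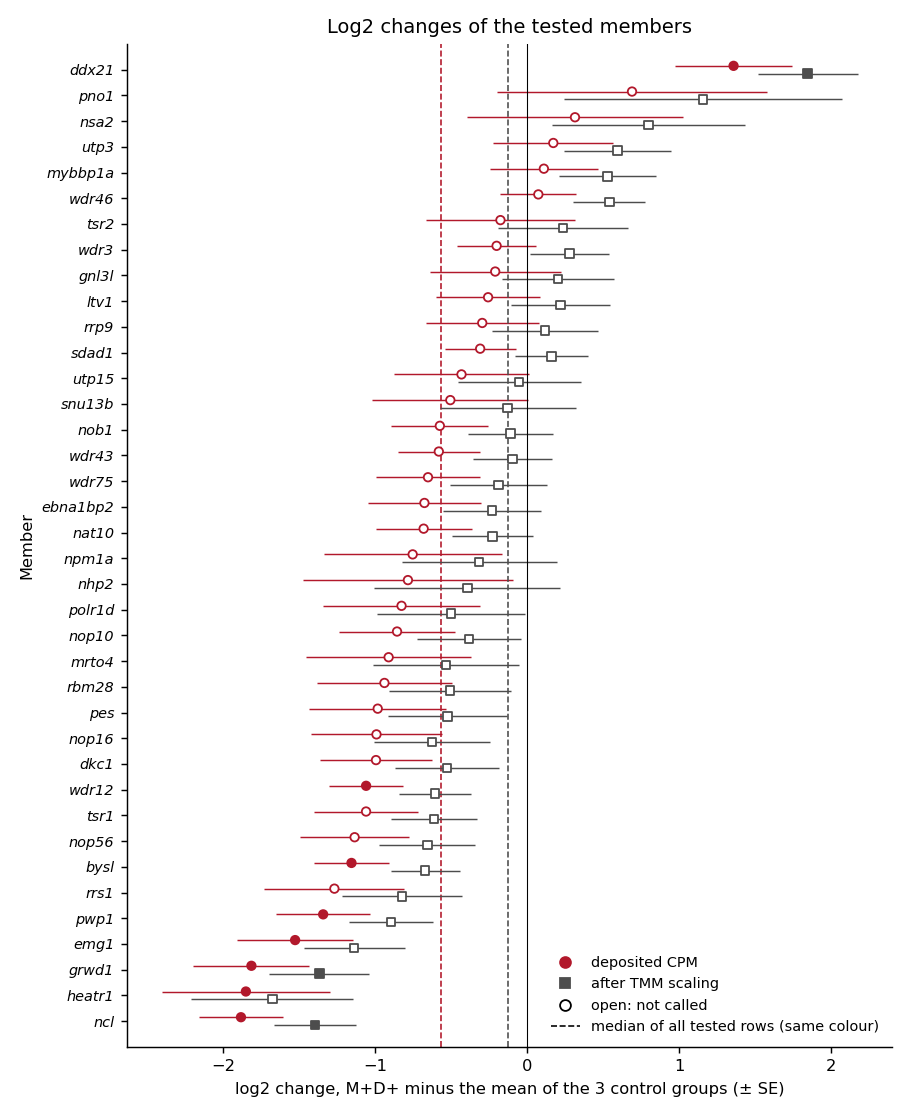
Log2 change (± SE) of the 38 tested members in M+D+ beside the average of the 3 control groups, on deposited CPM (red circles) and after TMM scaling (grey squares); filled symbols were called, and dashed lines mark the median of all tested rows. The whole set shifts to the right by TMM scaling; ddx21 stays right of 0 and ncl and grwd1 stay left of it and filled on both scales, while wdr3, ltv1, tsr2, gnl3l, rrp9 and sdad1 turn from below to above 0.

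Counting libraries rather than tests, both M+D+ libraries lay above all 6 controls for 1 of 38 members (2.63%, beside 3.87% of all rows). They lay below all 6 for 9 members (23.7%, beside 26.9%): ncl, bysl, grwd1, wdr12, pwp1, emg1, nop56, wdr43 and rbm28. After TMM scaling ddx21, wdr46 and utp3 were above (7.89%, beside 11%), and ncl, bysl, grwd1 and emg1 below (10.5%, beside 13.1%). None of these shares of members exceeded that of all rows.

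The count of 8 rested on which libraries were in the fit, as did the share of all rows called. It was 17 (44.7%, beside 28.9% of all rows) without M-D+ library 2 and 3 (7.89%, beside 12%) without M-D- library 2. It was 2 (5.26%) without M+D- library 1, M+D- library 2 or M+D+ library 2, beside 9.5%, 10.2% and 11.4% of all rows in that order. It was 0 by limma without M+D+ library 1 (9 at an unadjusted p under 0.05), beside 1.46% of all rows. In these limma fits the lone library of a group was taken to vary like the other groups. The shares of all rows are at adjusted p, and none at an unadjusted p is given beside the 9. When the control average omitted M-D+, ncl alone was called (log2 change -1.86 ± 0.29, limma adjusted p = 0.0140), beside 8.24% of all rows. By edgeR on recovered whole tags ddx21 and ncl were called (log2 changes 1.87 and -1.35, edgeR adjusted p = 0.0181 and 0.0365), beside 9.81% of all rows.

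On deposited CPM, summed levels of some other cell type markers were lower in M+D+. The summed level of 8 exocrine pancreas markers (of 10) was 651 to 1014 CPM in M+D+, against 1348 to 2803 CPM in M-D+, 1215 to 2201 CPM in M+D- and 1907 to 3951 CPM in M-D-. For 6 of 7 erythrocyte markers it was 139 to 209 CPM in M+D+, against 216 to 355 CPM in M-D+, 387 to 446 CPM in M+D- and 257 to 279 CPM in M-D-. For 3 of 7 lymphocyte markers, led by il7r, it was 746 to 1423 CPM in M+D+, against 1871 to 3422 CPM in M-D+, 3740 to 4177 CPM in M+D- and 2448 to 2904 CPM in M-D-. Markers of dividing cells (4 of 8, led by pcna) summed to 3.13 to 4.54 CPM in M+D+, against 14.9 to 30.4 CPM in M-D+, 7.96 to 9.77 CPM in M+D- and 10.4 to 28.2 CPM in M-D-. On deposited CPM the 4 sums were lower in both M+D+ libraries than in every control library. Divided by the TMM factors, the M+D+ and M-D+ sums overlap for exocrine pancreas, erythrocytes and lymphocytes. Only the sum of the dividing-cell markers then stays below every control library. Singly, on deposited CPM, 6 of the 8 exocrine pancreas markers lay below every control library in both M+D+ libraries. So did 1 of the 6 erythrocyte, 1 of the 3 lymphocyte and 1 of the 4 dividing-cell markers, beside 26.9% of all rows tested. The same held for 1 of the 5 hepatocyte markers. No listed marker was at 0 in all libraries, and the part of these cells in the members' values was not tested.

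Genes of the same pathway outside the 57 were read from 5 lists with 152 genes, of which 120 were found and 56 tested. Against the control average, 2 rose in M+D+ and 10 fell, and after TMM scaling 3 rose and 3 fell. The 60S factor gene rsl24d1 stood at 4206 and 4097 CPM in M+D+, against 1308 and 953 CPM in M-D+, 2451 and 2677 CPM in M+D-, and 3772 and 2674 CPM in M-D-, above every control library in both M+D+ libraries (log2 change 0.99 ± 0.26, limma adjusted p = 0.0296). The exosome gene exosc3, a subunit of the complex that trims rRNA precursors, was at 17.7 and 20.6 CPM in M+D+, against 5.35 and 10.4 CPM in M-D+, 15.7 and 14.8 CPM in M+D-, and 7.50 and 7.37 CPM in M-D- (log2 change 0.93 ± 0.28, limma adjusted p = 0.0492). Both were also called after TMM scaling.

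By list, the small-subunit genes utp6 and rrp7a fell, with 17 tested and a median log2 change of -0.69. The large-subunit genes rrp15 and lsg1 fell (17 tested, median -0.46), as did the nucleolar genes nol7, ilf2 and ilf3b (6 tested, median -0.87). The shared polymerase subunits polr2h and polr2l fell (10 tested, median -0.52), and so did the exosome helicase gene mtrex (6 tested, median -0.88). After TMM scaling rrp15, ilf2 and ilf3b stayed called lower, with log2 changes of -1.17 for rrp15, -1.20 for ilf3b and -1.07 for ilf2, and the cyclase-like 40S factor gene rcl1 was called higher (1.13 ± 0.23, limma adjusted p = 0.0265). These lists were read as counts, beside the 23% of all rows called on the deposited scale and 11.1% after TMM scaling.

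The control groups share no libraries with each other, but the comparisons of M+D+ with each of them share the M+D+ libraries. Against M-D+, 22 of 38 members were called, ddx21 higher and 21 lower, 57.9% beside 44.2% of all rows (55.3% beside 41.7% for those lower), with median log2 changes of -1.58 for the members and -1.04 for all rows. The largest falls were in pwp1 (-3.04 ± 0.38), rrs1 (-2.71 ± 0.56), heatr1 (-2.55 ± 0.68), grwd1 (-2.46 ± 0.47) and emg1 (-2.40 ± 0.47). After TMM scaling 6 members were called (15.8%, beside 15% of all rows). Of these ddx21 was higher at 2.94 ± 0.40, and pwp1, rrs1, emg1, grwd1 and tsr1 were lower, with log2 changes between -2.09 and -1.36 (13.2% of members, beside 7.3% of all rows).

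The other members called lower against M-D+ on the deposited scale were spread over every role. They were the 60S genes pes (-2.34), mrto4 (-2.13), nop16 (-1.77), wdr12 (-1.66) and ebna1bp2 (-1.64). For 40S assembly they were tsr1 (-2.31), nat10 (-1.64), wdr75 (-1.59), bysl (-1.51) and wdr43 (-0.94). The remaining ones were npm1a (-2.22), ncl (-1.92), polr1d (-1.91), dkc1 (-2.10), nop10 (-1.59) and nop56 (-1.56), all as log2 changes. Of the 38, 8 had passed the filter on low values only through the M-D+ libraries, and mrto4 and polr1d are among them. Over rows that pass without those libraries, 20 of 30 members were called (66.7%, beside 43.8% of 3923 rows), and 6 (20%, beside 16.1%) after TMM scaling. The count over the 38 was 10 (26.3%, beside 33.5% of all rows) without M-D+ library 1, 27 (71.1%, beside 39.2%) without M-D+ library 2 and 12 (31.6%, beside 23.1%) when M+D+ library 1 was omitted.

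Against M+D-, ncl alone was called (log2 change -1.78 ± 0.34, limma adjusted p = 0.0375), 2.63% of members beside 2.73% of all rows. The members' median was 0.02, beside -0.30 for all rows, and 19 of 38 (50%) were above 0, beside 32.2%. After TMM scaling the medians were 0.26 and -0.07, and no member was called by limma (4 at an unadjusted p under 0.05), beside 1.7% of all rows. The 1.7% is a share at adjusted p, and none at an unadjusted p is given. For ddx21 the difference from M+D- was 1.16 ± 0.47 and did not pass (limma adjusted p = 0.197). Against M-D-, ncl (-1.94 ± 0.34, limma adjusted p = 0.0252) and bysl (-1.39 ± 0.30, limma adjusted p = 0.0435) were called, 5.26% beside 5.22% of all rows. Both were lower, beside 3.87% of all rows called lower. The same 2 genes were called after TMM scaling, at -1.75 ± 0.33 and -1.20 ± 0.28, beside 5.37% of all rows.

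**Figure D4:**
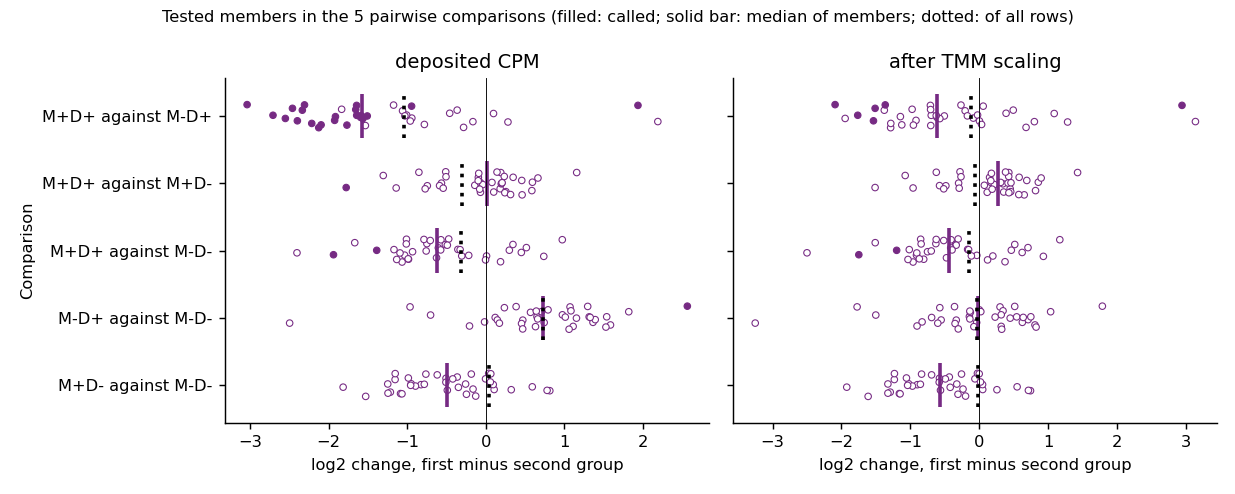
Log2 change of each of the 38 tested members in 5 comparisons of 2 groups (first minus second), on deposited CPM (left) and after TMM scaling (right); filled points were called, solid bars are the members' median and dotted bars the median of all rows. The members' median is lower than that of all rows for M+D- against M-D- on both scales, and for M-D+ against M-D- the 2 medians coincide, near 0.73 on the deposited scale and near 0 after TMM scaling.

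In transgenic livers without doxycycline (M+D-) against untreated wild type (M-D-), no member was called by limma (6 at an unadjusted p under 0.05), by edgeR or by DESeq2, beside 0% of all rows by limma and by edgeR and 0.882% by DESeq2. These shares are at adjusted p, and none at an unadjusted p is given beside the 6 members (12 after TMM scaling). Of the 38 members 9 were above 0 (23.7%, beside 53.2% of all rows), and the median log2 change was -0.50, beside 0.04 over all rows. After TMM scaling 7 of 38 were above 0 (18.4%, beside 48.1%), and the medians were -0.57 and -0.02. Both M+D- libraries lay below both M-D- libraries for 21 members (55.3%), beside 24.8% of all rows, and for 22 (57.9%) beside 27.5% after TMM scaling. This is a description of 2 libraries against 2, without a test.

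The genes in that pattern came from each role. Examples are bysl at 109 and 107.6 CPM in M+D- against 191 and 194 CPM in M-D-, tsr1 at 7.17 and 4.86 against 12.7 and 16.3 CPM, and dkc1 at 10.8 and 11.5 against 18.9 and 32.3 CPM. The largest difference was in heatr1 (log2 change -1.82 ± 0.68, limma adjusted p = 0.508), at 1.79 and 0.66 CPM in M+D- and 7.95 and 5.42 CPM in M-D-. Going the other way, sdad1 stood at 32.1 and 41.5 CPM in M+D- against 18.9 and 23.0 CPM in M-D-, and nsa2 and gnl3l were also above both M-D- libraries, which makes 3 members (7.89%, beside 27.4% of all rows). The members' median stayed below that of all rows in each fit that left out 1 M-D- or M+D- library. Examples are -0.69 beside -0.04 when M-D- library 1 was omitted and -0.33 beside 0.10 without M-D- library 2. Leaving out an M-D+ or M+D+ library cannot change these medians.

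In wild-type livers on doxycycline (M-D+) against untreated wild type (M-D-), pwp1 was the only member called (log2 change 2.57 ± 0.38, limma adjusted p = 0.0371), 2.63% of members beside 9.79% of all rows. It stood at 73.1 and 38.5 CPM in M-D+ against 6.59 and 9.97 CPM in M-D-, with no overlap. After TMM scaling its change was 1.79 and did not pass (limma adjusted p = 0.0717), with 0.0218% of all rows called. The median over the members was 0.73 and over all rows 0.72, and after TMM scaling -0.02 and -0.03. These are averages of 2 M-D+ libraries that differed in the members. In both M-D+ libraries 3 members (7.89%, beside 5.75% of all rows) stood below both M-D- libraries: ddx21, wdr3 and pno1, the last at 11.9 and 12.9 CPM in M-D+ against 49.3 and 112.8 CPM in M-D-. None of these 3 passed by limma, while DESeq2 on recovered tags called all 3 lower, with log2 changes of -1.57 for ddx21, -1.50 for wdr3 and -3.42 for pno1 (DESeq2 adjusted p at most 0.0189). DESeq2 gave an adjusted p to 11 members, so these are 27.3% of them, beside 10.7% of its 1560 rows called and 8.72% called lower.

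The 2 M-D+ libraries differed in the members more than over all rows tested, as a description of 2 libraries without a test. Library 1 was higher than library 2 for 37 of 38 members (97.4%), beside 56.5% of all rows, with a median log2 difference of 1.01, beside 0.13. After TMM scaling it was 36 of 38 (94.7%, beside 44.4% of all rows), with a median difference of 0.74, beside -0.12. M-D+ library 1 exceeded both M-D- libraries for 35 members (92.1%, beside 72.6% of all rows), and M-D+ library 2 for 19 (50%, beside 72.9%). After TMM scaling library 1 did so for 24 (63.2%, beside 36.1%) and library 2 for 8 (21.1%, beside 39.5%). Of the 38, 8 had passed the filter on low values only through the M-D+ libraries, which favours high M-D+ values in these counts. The median log2 change against M-D- was 0.22 when M-D+ library 1 was omitted and 1.31 without M-D+ library 2, beside 0.66 and 0.77 for all rows. Other measures also split these libraries, and M-D+ library 1 was the shallowest of the 8. Ribosomal protein rows took 33.3% of the tags of library 1 and 20.3% of those of library 2. Summed markers were lower in library 1 than in library 2 for hepatocytes (86291 and 224377 CPM), biliary cells (883 and 2655 CPM), stellate cells and fibroblasts (45.8 and 349.5 CPM), macrophages and neutrophils (121 and 278 CPM), erythrocytes (216 and 355 CPM), lymphocytes (1871 and 3422 CPM) and dividing cells (14.9 and 30.4 CPM). They were higher in library 1 for exocrine pancreas (2803 and 1348 CPM), intestine (27.3 and 2.95 CPM) and endothelium (3.57 and 1.37 CPM). The endothelial sums rest on few tags, at 0.5944 CPM a tag in library 1 and 0.2265 CPM a tag in library 2, so their order may be counting error. Their part in the difference was not tested.

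**Figure D5:**
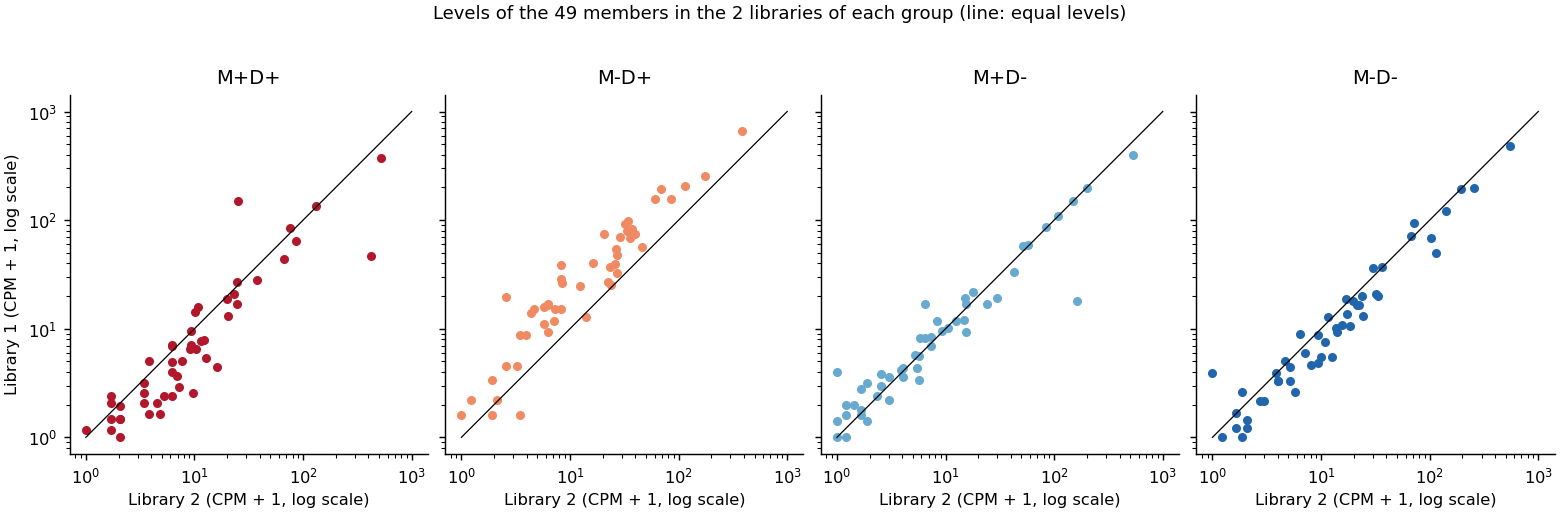
Level of each of the 49 members in library 1 (vertical) against library 2 (horizontal) of each group, as CPM + 1 on log axes, with the line of equal levels. Points of M-D+ lie above the line almost throughout, and those of M+D- scatter around it. More points of M+D+ and of M-D- lie below the line than above it. Single points far from the line are pno1 and nsa2 in M+D+, pno1 in M+D- and dcaf13 in M-D+.

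Other groups were tighter for most members. The 2 libraries differed by more than 2-fold for 10 of 37 members in M+D+ (heatr1, at 0 in library 1, has no ratio) and, of 38, for 21 members in M-D+, 4 members in M+D- and 4 members in M-D-, and by more than 4-fold for 5, 1, 1 and 0 in the same order. In M+D+ library 1 was the higher 1 for 10 of 38 members (26.3%, beside 38.3% of all rows). In M-D- that held for 9 members (23.7%, beside 36.4%) and in M+D- for 22 (57.9%, beside 57.7%). By group mean, M-D+ was highest for 33 of the 38 tested members on the deposited scale (86.8%, beside 70.0% of all rows) and for 18 after TMM scaling (47.4%, beside 31.9%). The 33 include all 8 members that passed the filter on low values only through M-D+, so that filter partly set these shares. M+D+ was lowest for 15 (39.5%, beside 52.3%) and after TMM scaling for 9 (23.7%, beside 33.3%). M+D- was also lowest for 15 (39.5%, beside 17.0%) and after TMM scaling for 20 (52.6%, beside 20.52%).

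The interaction of genotype and doxycycline asks whether the doxycycline difference in transgenic fish departs from that in wild type. It was called for 1 member, pwp1, at -3.08 ± 0.53 on the log2 scale (limma adjusted p = 0.0412), 2.63% of members beside 8.24% of all rows. After TMM scaling it was -2.07 ± 0.48 and did not pass (limma adjusted p = 0.111), with 0.109% of all rows called. For ddx21 the interaction was 2.12 ± 0.66 and for emg1 -2.51 ± 0.66, and neither passed (limma adjusted p = 0.0693 and 0.0538). The members' median was -0.91, beside -1.07 for all rows, and turned to 0.06, beside -0.10, after TMM scaling.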

How the data were processed

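The members and gene lists were chosen with earlier results of these data known. Each deposited file lists RefSeq accessions with CPM values, normalized by the authors to the tags of a library. The aligner, the build and the rule for assigning tags were not given in the sources used here. Genes with near-identical 3' ends could therefore share tags, and antisense reads cannot be told apart. Rows missing from a file were set to 0. Values were whole multiples of 1 tag (100% within 0.1 tags), which gave the library totals. A RefSeq table (assembly GRCz12tu) gave symbols for 10410 of 15600 rows and 3746 of the 4577 tested (81.8%). Of all rows, 122 lack an accession, with 1.25% to 4.72% of the tags per library.

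The main test was limma 3.58.1 (R 4.3.3) with an intensity trend on log2(CPM + 1), which understates changes of low rows, in 1 fit of 4 group means (4 residual and 4.07 prior degrees of freedom). Rows needed 5 CPM in 2 libraries. P-values were two-sided and Benjamini-Hochberg adjusted over 4577 rows in each of 7 comparisons. Log2 changes are first group minus second, ± SE. TMM factors were computed on the deposited CPM. Alternatives were edgeR 4.0.16 (quasi-likelihood) and DESeq2 1.42.0 on recovered tags, pseudocounts of 0.5 and 5, no filter or 20 CPM, leaving out 1 library, a replicate block, and, chosen after seeing the data, TMM scaling without M-D+ in the control average and a crossed block. The limma script was tested on simulated data. Values per library are given for members called in the main comparison and for core snoRNP, PeBoW and polymerase genes. They are also given for npm1a, ncl, ddx21 and the 10 members of highest mean level. Other members are given by range, count or log2 change. Outside this rule, values of some libraries are printed for tsr1, sdad1, nop14, dcaf13 and gnl3, picked with the data seen.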

Additional observations from a re-analysis of the deposited data

Results flagged for a closer look

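The doxycycline difference of pwp1 departed between transgenic and wild-type fish: the interaction was -3.08 on the log2 scale, from 5.94 and 5.24 CPM in M+D+ and 8.56 and 8.18 CPM in M+D-, beside 73.1 and 38.5 CPM in M-D+ and 6.59 and 9.97 CPM in M-D-. It was picked out because this difference of differences passed its own test (limma adjusted p = 0.0412). By edgeR it was -2.23 and by DESeq2 -2.17, and neither passed (edgeR and DESeq2 adjusted p = 0.133 and 0.109). For the interaction DESeq2 called 1 other member, higher, of the 32 to which it gave an adjusted p (3.12%, beside 2.88% of all rows).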

How the results depend on the processing

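The number of members called moved with the scaling, the filter and single libraries. Against the mean of the controls (8) it was 3 after TMM scaling, 3 with no filter, 1 when the control average omitted M-D+, 1 with TMM scaling as well, 2 by edgeR, 3 by DESeq2, and 0 to 17 leaving out 1 library. Against M-D+ (22) it was 6 after TMM scaling, 4 by edgeR, 8 by DESeq2 and 10 to 27 leaving out 1 library. Against M+D- (1) it was 0 after TMM scaling, with no filter and by edgeR, and 2 by DESeq2. Against M-D- (2) it was 1 with no filter and 1 by edgeR. For M-D+ against M-D- (1) it was 0 after TMM scaling, with no filter and by edgeR, 3 with a pseudocount of 5 and 3 by DESeq2. For the interaction (1) it was 0 after TMM scaling, with no filter and by edgeR, and 2 with a filter at 20 CPM. For M+D- against M-D- it was 0 in every setting run. Leaving out 1 library also moved the count against M+D-, against M-D-, for M-D+ against M-D- and for the interaction. The share of all rows called moved too, also in fits that left out 1 library. With no filter, over 49 members and 15600 rows, it was 3.56% against the mean of the controls. It was then 0.423% against M+D-, 0.558% against M-D-, 0.0192% for M-D+ against M-D- and 0% for the interaction. With a pseudocount of 5 it was 15.1% for M-D+ against M-D-. With a filter at 20 CPM it was 21.9% for the interaction, over 22 members. Against the mean of the controls that share was 23% in the main fit, 11.1% after TMM scaling, 9.81% by edgeR and 11.7% by DESeq2. Against M-D+ it was 44.2%, 15%, 13.1% and 15.4% in the same order. Against M+D- it was 2.73%, 1.7%, 0.852% and 5.86%, and against M-D- 5.22%, 5.37%, 4.15% and 7.8%. For M-D+ against M-D- it was 9.79%, 0.0218%, 0% and 10.7%, and for the interaction 8.24%, 0.109%, 0% and 4.07%. Shares by DESeq2 are of the rows to which it gave an adjusted p, which held 28 members against M+D- and 32 for the interaction. Of the 8 members called by DESeq2 against M-D+, 4 were higher (10.5%, beside 8.74% of all rows) and 4 lower (10.5%, beside 6.66%). The 2 against M+D- were 1 higher (3.57%, beside 2.64%) and 1 lower (3.57%, beside 3.22%).

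Against the control average, signs turned for 8 of the members given library by library, none of them called there. Of these, wdr43 alone passed in another setting, without M-D+ library 2 (log2 change -0.72, limma adjusted p = 0.0408). For wdr3 the log2 change was 0.28 after TMM scaling, 0.35 by edgeR and 0.40 by DESeq2. For ltv1 it was 0.22 after TMM scaling, 0.12 when the control average omitted M-D+, 0.34 with both, 0.27 by edgeR and 0.31 by DESeq2. Leaving out 1 library gave -0.51 to 0.11 for wdr3, -1.17 to 0.16 for snu13b, -1.75 to 0.18 for nhp2, -1.68 to 0.17 for npm1a, -0.60 to 1.98 for pno1 and -1.28 to 1.91 for nsa2, and each of these extremes came from leaving out 1 of the M+D+ libraries. DESeq2 gave 0.045 for snu13b and 0.010 for wdr43. The control average without M-D+ gave -0.061 for pno1, and with TMM scaling as well 0.17 for npm1a. The cause of these changes was not tested.

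Same-numbered libraries did not deviate together (r of their deviations between -0.33 and 0.04 over 4577 rows). With 2 libraries a group, this cannot settle whether the numbers pair the samples. With the replicate number as a block, 6 members were called against the mean of the controls (15.8%, beside 15.9% of all rows). Against M-D+ it was 18 (47.4%, beside 37.1%). It was 0 against M+D- (beside 1.05%), against M-D- (1.86%), for M-D+ against M-D- (0%) and for the interaction (0.131%). With crossed numbers the counts were 12, 24, 0, 2, 6 and 3 in the same order. These were 31.6%, 63.2%, 0%, 5.26%, 15.8% and 7.89% of members, beside 25.4%, 47%, 2.77%, 6.69%, 16.6% and 12.2% of all rows. Depth limits the 11 untested members most, at 3.49 CPM or less on average.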

Other observations

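The untested small-subunit gene dcaf13 was split within 3 groups. It gave 31 and 7 tags in M-D+ (18.4 and 1.59 CPM), 15 and 0 tags in M+D- (2.99 and 0 CPM) and 13 and 0 tags in M-D- (2.95 and 0 CPM), beside 6 and 3 tags in M+D+ (0.94 and 1.05 CPM). In each of these 3 control groups library 1 was the higher. A level of 0 allows up to 0.663 CPM in M+D- library 2 and 0.650 CPM in M-D- library 2 (3 tags, counting error only).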
